A study of Mus musculus with 6 samples.

Results

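A scratch across a confluent epithelial sheet opens a gap that the cells at its edge close by spreading, crawling and dividing. This is the standard culture model of epithelial wound closure, and growth factor signalling through ERK, early transcription factors such as Fos and Egr1, matrix remodelling and integrin exchange are its known early steps. Here the response of the parental MLE12 line was read once, 24 hours after the scratch. Messenger RNA from a scratched, wild-type monolayer was compared with that from an unscratched, wild-type one, over all 46078 genes of the count table. MLE12 is an immortalized mouse lung epithelial cell line. The study holds 6 libraries of this line, 1 per group: the scratched parental library, 4 libraries of knockout lines (Lingo1, Lingo2, Lingo3 and TROY) collected 24 hours after the same kind of scratch with a pipet tip, and the unscratched parental library. The knockouts, so called from their labels, serve only as context. In the library labelled as the Lingo1 knockout the Lingo1 transcript was not reduced: it had 1579 reads, the most of all 6 libraries. How many scratches were made and what share of the cells lay at an edge is not given in the sources used here. Each library holds a whole culture, in which fewer cells of a kind and less RNA per cell cannot be told apart.

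Levels are given as CPM, counts per 1e+06 reads after TMM scaling (edgeR's trimmed mean of M values, which aligns the bulk of genes between libraries). A ratio is the scaled level in the scratched library divided by that in the unscratched library, and its interval is an exact 95% counting interval (Clopper-Pearson). These intervals cover counting error only: with 1 library per group there was no replicate check, no p-value was computed, and a difference between any 2 cultures cannot be told apart from an effect of the scratch. Of all genes, 12078 averaged 1 CPM or more across the 6 libraries and were compared. A gene passed the 2-fold rule when its ratio was at least 2-fold in either direction and the nearer bound of its interval lay beyond 1.5-fold. It passed the small-shift rule when its ratio was at least 1.1-fold in either direction and its interval excluded 1. Below, "higher" and "lower" are said of compared genes only where they passed the small-shift rule; the possible foreign RNA genes at the end lie mostly under the filter on level.

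The scratched library had 29307338 reads in genes and the unscratched library 28224654, within a range of 28109825 to 30776294 over the 6 libraries. Reads outside counted features made up 8.02% of uniquely aligned reads in the scratched library and 7.80% in the unscratched library, against 4.98% to 6.41% in the knockouts. MLE12 cells carried their lung epithelial label in part. The transcription factor Nkx2-1 had 160 CPM in the scratched and 191 CPM in the unscratched library (4878 and 5481 reads), and surfactant protein C (Sftpc) had 18.3 and 16.5 CPM. Surfactant genes Sftpa1 and Sftpd had 0 counts in both. Of 15 leukocyte markers, 7 were at 0 in both libraries, Ptprc (CD45) among them, and their summed level was 2.07 CPM in the scratched and 2.16 CPM in the unscratched library. Fibroblast markers summed to 2580.1 CPM in the scratched and 2826 CPM in the unscratched library, almost all of it decorin (Dcn, 77012 and 79083 reads), while Col3a1, Lum and Tcf21 had 0 or 1 read in each. Neural markers summed to 254 CPM in the scratched and 235 CPM in the unscratched library, most of it Map2, with Snap25, Olig2 and Sox10 at 0 in both, and muscle and blood cell markers had 54 reads in the scratched and 17 in the unscratched library, of which Acta1 had 39 and 6.

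The scratched library stood apart in a small set of genes that MLE12 cells otherwise hardly transcribed. By raw counts, 102 genes had at least 10 reads there and at least 4 times the reads of every other library. They summed to 2469 reads in the scratched library, 77 to 117 in the knockouts and 115 in the unscratched library. With scaled levels and every count of 0 set to 3, 71 genes remained, with 2117 reads in the scratched library and 96 in the unscratched library, or 0.00722% of the scratched library's reads. The same rule found 67 genes in the library labelled Lingo3, 1 in that labelled Lingo2 and 0 in each of the other 3. These 71 genes are treated here as possible foreign RNA and are described at the end. Only Vwf and the pseudogene Gm12912 among them passed the filter on level. Both did so only through the scratched library, with 5.56 CPM for Vwf and 6.94 CPM for Gm12912. Elsewhere Vwf had at most 1.21 CPM and Gm12912 at most 0.07 CPM. Both are counted among the genes past the 2-fold rule below.

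The 2 parental libraries were close. The median log2 ratio over all compared genes was -0.01, the middle 50% lay between -0.11 and 0.08, 66.3% of genes were within 1.1-fold and 98.5% within 1.5-fold. Past the 2-fold rule there were 8 genes with a ratio above 1, or 0.0662% of those compared, and 2 with a ratio below 1, or 0.0166%. Past the small-shift rule 985 genes (8.16%) were higher and 1476 (12.2%) were lower. That balance rests on the scaling: with scaling by total counts 1495 were higher and 999 lower, and after a correction for GC content 913 were higher and 877 lower. A ratio above 1, by any amount, was held by 46.4% of genes. The counts for each gene list below are to be read against these shares, which themselves varied with level and GC content. Of genes under 5 CPM on average in the parental libraries, 5.72% were higher and 5.16% lower. Of those from 300 to 1000 CPM, 2.045% were higher and 19.2% lower. Among 10 groups of genes by GC content, 18.2% were higher and 2.08% lower in the lowest, and 1.99% and 36.8% in the highest. Lists of abundant or GC-rich genes therefore have a larger share lower to be read against.

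**Figure D1:**
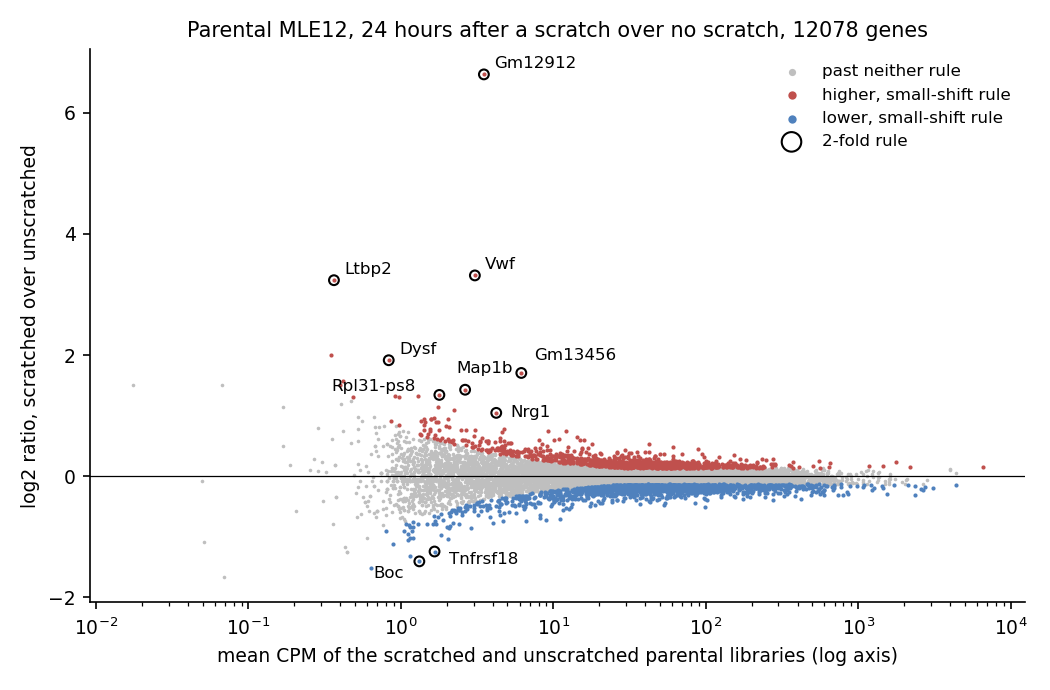
Log2 ratio of the scratched over the unscratched parental library (vertical axis) against the mean level of each gene in those 2 libraries, in CPM on a log axis. Each point is 1 gene. Red points are higher and blue points lower by the small-shift rule, circles mark the 10 genes past the 2-fold rule, and most points lie close to 0.

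The ratio also followed the base composition of the transcripts. Among 10 groups of genes ordered by GC content, the median log2 ratio was 0.07 in the group with the least GC (median 39.6%) and -0.13 in the group with the most (59.6%), and each step between them went down. Over genes, which are not independent replicates, Pearson's r between ratio and GC content was -0.29 and Spearman's rho -0.40. The scratched libraries did not share 1 slope. Relative to each gene's mean over the 6 libraries, the scratched parental median was 0.07 in the group with the least GC and -0.07 in that with the most. The unscratched library had 0.01 and 0.05. Among the knockouts, TROY had 0.07 and -0.07, Lingo1 -0.05 and 0.02, Lingo2 -0.02 and -0.02, and Lingo3 -0.09 and 0.08. Whether the scratch or the preparation of the 2 libraries set this gradient was not tested. List medians are therefore given as measured and again after subtracting the median of genes of like GC content, in 20 bins, a correction chosen after the gradient was seen.

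**Figure D2:**
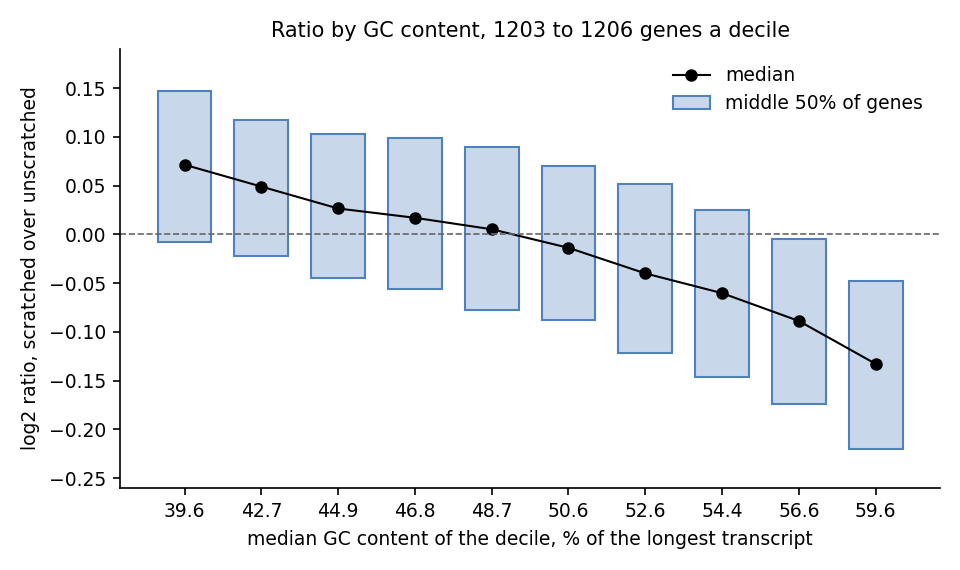
Log2 ratio of the scratched over the unscratched parental library in 10 groups of genes ordered by transcript GC content. Dots are medians and boxes span the middle 50% of genes; the medians step down at every group, between 0.07 at the left and -0.13 at the right.

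Among the 10 genes past the 2-fold rule were 2 with known parts in repair and growth. Nrg1, which encodes neuregulin 1, a ligand of the ERBB3 and ERBB4 receptors (GRCm38 chr8:31814551-32884029), had 173 reads (5.69 CPM) in the scratched library and 79 reads (2.76 CPM) in the unscratched library, a ratio of 2.06 (interval 1.57 to 2.73). In the 4 knockout libraries it stood between 3.64 and 5.71 CPM, all above the unscratched library. Dysf (chr6:84008590-84211060), which encodes dysferlin, a protein of plasma membrane resealing best known in muscle, had 40 reads in the scratched and 10 in the unscratched library, a ratio of 3.77 (1.85 to 8.45). It passed the filter on level only through the knockouts, where it stood between 2.29 and 43.0 CPM, against 1.31 CPM in the scratched and 0.35 CPM in the unscratched parental library. Of the 22 other membrane repair and annexin genes compared, 0 were higher, and Cav1 (ratio 0.90) and Anxa6 (0.84) were lower.

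Map1b, a microtubule-binding protein of growing neurites (chr13:99421446-99516540), had 117 reads in the scratched and 41 in the unscratched library, a ratio of 2.69 (1.87 to 3.94). Tubb3 (1.31) and Map2 (1.12), also known from neurons, were higher too, whereas Map1a (0.84), Map1s (0.84), Map7d1 (0.83) and the plus-end protein Mapre3 (0.83) were lower. Ltbp2, a microfibril-associated protein (chr12:84783212-84876532), had 20 reads in the scratched and 2 in the unscratched library, a ratio of 9.42 whose interval of 2.29 to 83.1 reflects those 2 reads. It too passed the filter only through the knockouts (0.20 to 10.7 CPM), against 0.66 CPM in the scratched and 0.07 CPM in the unscratched parental library. Vwf, the von Willebrand factor of endothelial cells, had 169 and 16 reads, a ratio of 9.95 (5.95 to 17.8), and belongs to the possible foreign RNA. The other 3 higher ones were pseudogenes, Gm12912 (211 and 2 reads), Gm13456 (287 and 83) and Rpl31-ps8 (78 and 29), whose reads the counting could share with their parent genes. With the filter set on the 2 parental libraries alone, Dysf and Ltbp2 dropped out, the other 8 remained and 6 were gained, 14 in all. The gained genes, named after their values were seen, were Epas1 (93 reads in the scratched and 0 in the unscratched library), which encodes the hypoxia factor HIF-2alpha, Kdr (74 and 12), Lama4, Efemp1 and the pseudogenes Gm8730 and Gm13050. Lama4 and Efemp1 belong to the possible foreign RNA. In the knockouts Epas1 had 55 reads in the library labelled Lingo3, 2 in Lingo2, 1 in TROY and 0 in Lingo1. Each of the 6 gained genes lay under 1 CPM in the unscratched library, and so passed that filter through the scratched library.

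Lower past the 2-fold rule were Boc and Tnfrsf18. Boc, a hedgehog co-receptor (chr16:44485049-44558897), had 22 reads in the scratched and 55 in the unscratched library, a ratio of 0.38 (0.22 to 0.63). Tnfrsf18, which encodes the TNF receptor family member GITR (chr4:156026164-156028895), had 30 and 67 reads, a ratio of 0.42 (0.27 to 0.66). Of the 23 TNF receptor and ligand genes compared, 1 other, Tnfrsf1a (0.89), was lower and 0 were higher. With smaller ratios or wider intervals, Ly96 (the TLR4 partner MD-2, ratio 2.14), Abhd15 (2.47), Camk1d (1.68) and the reelin and apolipoprotein E receptor Lrp8 (1.68) were higher. The cell-cycle inhibitor Cdkn1c (0.51), Clec3b (tetranectin, 0.61), the calcification inhibitor Mgp (0.70) and the collagen I chain Col1a1 (0.72) were lower.

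Of the lists with at least 5 genes compared, that of amino acid supply had the median log2 ratio furthest from 0. ATF4 is the transcription factor through which cells answer amino acid shortage and several other stresses; its known targets import amino acids and make serine, glycine and asparagine. Of 24 such genes compared, 20 had a ratio above 1, 12 were higher and 2 were lower. Their median log2 ratio was 0.23, against -0.01 over all genes, and 0.27 after GC correction; the 4 fibroblast markers compared had a median of -0.30. The unscratched library was the lowest of all 6 for 15 of the 24, as it was for 16.5% of all genes, and the highest for 0, against 19.1% of all genes.

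Among the transporters, Slc7a11, the cystine importer (chr3:49892526-50443614), had 547 reads (17.98 CPM) in the scratched and 339 reads (11.8 CPM) in the unscratched library, a ratio of 1.52 (1.32 to 1.75). Slc7a5, the importer of large neutral amino acids, had 50.4 and 35.0 CPM, a ratio of 1.44 (1.33 to 1.56), and stood between 73.8 and 90.6 CPM in the knockouts. Slc7a1, the arginine and lysine importer, was higher as well (1.15), while Slc3a2, the partner chain of Slc7a5 and Slc7a11, had a ratio of 1.05 and passed no rule.

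Among the enzymes, asparagine synthetase (Asns) had 2171 reads (71.4 CPM) in the scratched and 1468 reads (51.2 CPM) in the unscratched library, a ratio of 1.39 (1.30 to 1.49). All 3 enzymes of serine synthesis were higher, Phgdh (1.23), Psat1 (1.18) and Psph (1.23), as were the mitochondrial one-carbon enzymes Shmt2 (1.19) and Mthfd2 (1.254). Aldh1l2, a further mitochondrial folate enzyme outside the list, was higher too, with 17.6 CPM in the scratched and 11.2 CPM in the unscratched library (ratio 1.57, 1.36 to 1.81). Atf4 itself had 146 and 128 CPM (1.14, 1.09 to 1.19), and its stress partner Ddit3 (CHOP) 10.4 and 7.75 CPM (1.34, 1.13 to 1.60). In the knockouts Ddit3 stood between 6.46 and 7.18 CPM, below both parental libraries, and Asns between 71.5 and 82.4 CPM, above both. Chac1, which degrades glutathione, had 140 and 96 reads (1.37, 1.05 to 1.80). Lower were Cebpb (0.76), a partner of ATF4 on DNA, and Ddit4 (0.88), an inhibitor of mTORC1. Other genes of endoplasmic reticulum stress did not share the direction: of 20 compared, Ddit3 was higher and Xbp1 (0.84), Sdf2l1 (0.88) and Syvn1 (0.89) were lower.

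The promoters of 3 of the higher ATF4 genes are printed because they hold the core of the element to which ATF4 and C/EBP proteins bind together. Windows run from 250 bases before to 50 bases after the annotated start site, from RefSeq on GRCm38.p6. Capitals mark only TGATGNAA, searched on both strands, and no marked runs overlap. They were chosen after the ratios were seen.
Slc7a11 (chr3:50443564-50443863, minus strand): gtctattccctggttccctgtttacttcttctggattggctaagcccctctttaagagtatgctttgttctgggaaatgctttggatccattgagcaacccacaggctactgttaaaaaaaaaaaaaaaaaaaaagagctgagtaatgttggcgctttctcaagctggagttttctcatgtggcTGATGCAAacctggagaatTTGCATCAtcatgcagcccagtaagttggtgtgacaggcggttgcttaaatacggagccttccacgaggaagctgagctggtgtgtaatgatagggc
Asns (chr6:7693160-7693459, minus strand): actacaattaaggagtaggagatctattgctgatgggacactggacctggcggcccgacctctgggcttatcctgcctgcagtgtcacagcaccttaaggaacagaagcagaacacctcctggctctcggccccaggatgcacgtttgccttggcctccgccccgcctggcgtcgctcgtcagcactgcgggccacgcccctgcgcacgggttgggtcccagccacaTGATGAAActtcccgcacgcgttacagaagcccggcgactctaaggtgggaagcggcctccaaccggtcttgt
Chac1 (chr2:119350992-119351291, plus strand): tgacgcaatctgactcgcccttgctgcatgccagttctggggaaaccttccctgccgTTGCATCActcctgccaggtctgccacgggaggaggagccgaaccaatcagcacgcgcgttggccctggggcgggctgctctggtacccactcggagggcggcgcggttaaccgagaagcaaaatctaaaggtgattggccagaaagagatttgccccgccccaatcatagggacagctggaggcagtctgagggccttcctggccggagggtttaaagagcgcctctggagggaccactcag
In the Slc7a11 window the runs begin 66 and 47 bases before the start site, in the Asns window 23 bases and in the Chac1 window 193 bases before it. Of the 22 list members with a window, 7 held the motif (31.8%), against 4.51% of all 27025 genes with a window. The 7 included Trib3, Nupr1, Pck2 and Vldlr, whose ratios (1.17, 1.12, 0.95 and 0.92) passed no rule.

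**Figure D3:**
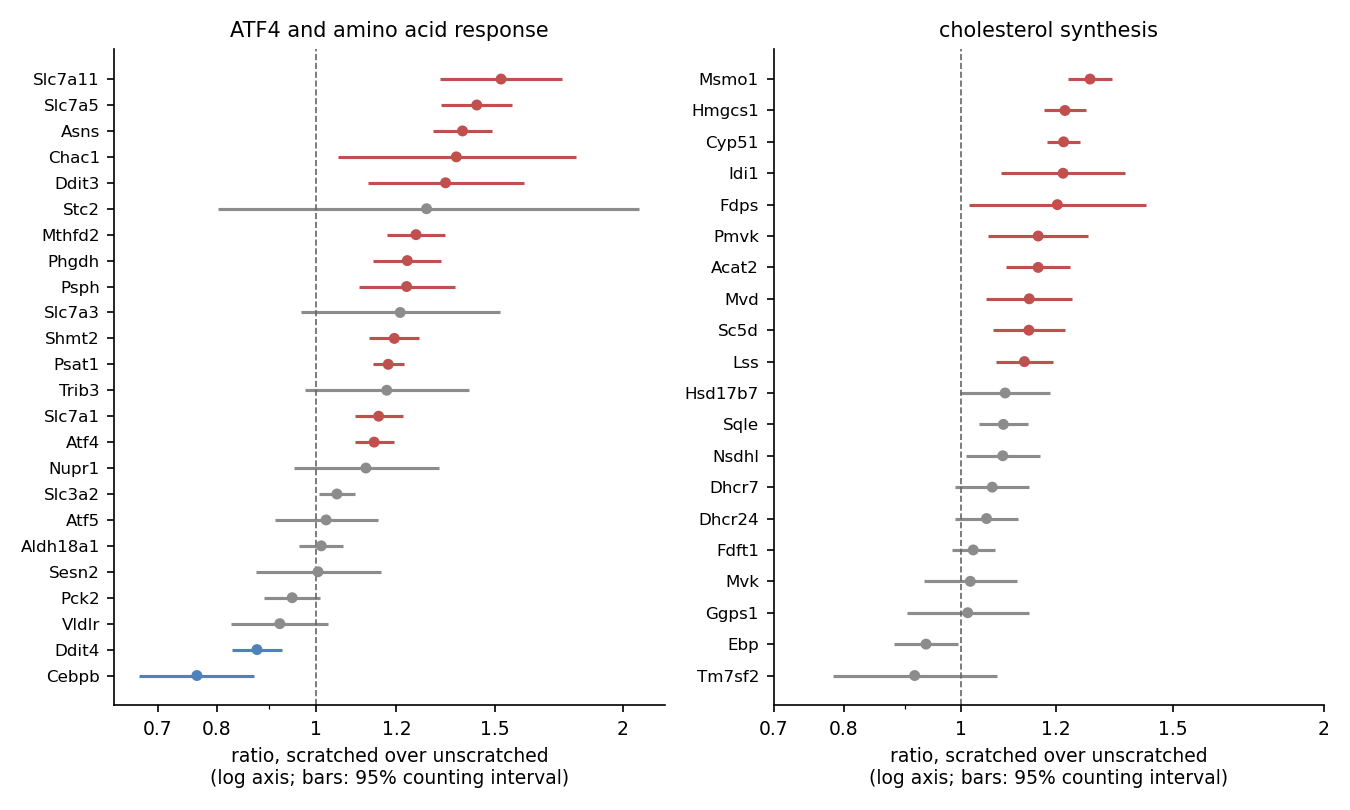
Ratio of the scratched over the unscratched parental library for the 24 compared members of the ATF4 and amino acid list (left) and 20 of the 21 of the cholesterol synthesis list (right), on a log axis with 95% counting intervals. Red members are higher, blue lower and grey past neither; 12 of 24 members on the left and 10 of 20 on the right are red.

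Genes of ribosome biogenesis, a list put together after ratios had been seen, lay on the same side. These factors transcribe, process and assemble ribosomal RNA in the nucleolus. Of 39 compared, 37 had a ratio above 1, 21 were higher and 0 were lower, with a median log2 ratio of 0.16 and of 0.19 after GC correction. Rrp12, an assembly factor, had 21.3 CPM in the scratched and 14.8 CPM in the unscratched library (1.44, 1.27 to 1.63). Ddx21, a nucleolar helicase, had 103 and 75.6 CPM (1.36, 1.29 to 1.44). The transcription and processing factor Heatr1 (1.30), nucleostemin (Gnl3, 1.29), Wdr43 (1.28) and dyskerin (Dkc1, 1.26) followed, whereas the abundant nucleolar proteins nucleolin (Ncl, 1.08) and nucleophosmin (Npm1, 1.04) passed no rule. The unscratched library was the lowest of the 6 for 24 of these 39 genes. Gnl3 was not among them, with 51.6 to 62.1 CPM in the knockouts, against 78.2 CPM in the scratched and 60.6 CPM in the unscratched parental library.

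Other genes of protein synthesis did not move alike. Myc, a known activator of ribosome biogenesis, had 54.0 CPM in the scratched and 45.9 CPM in the unscratched library (1.18, 1.095 to 1.27). Of 20 cytosolic aminoacyl-tRNA synthetases, also listed after ratios had been seen, 16 had a ratio above 1, but only Mars (1.17) and Iars (1.13) were higher. The ribosomal proteins themselves went the other way: of 37 compared, 0 were higher and 11 were lower, between Rplp2 (0.84) and Rps23 (0.91), with a median log2 ratio of -0.08 and of -0.05 after GC correction. Many of these genes have processed pseudogenes with near-identical sequence, so that their counts are uncertain.

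Cholesterol synthesis formed the next group. Its enzymes are controlled together by the SREBP2 transcription factor, and its product is a part of every plasma membrane. Of 21 enzymes compared, 19 had a ratio above 1, 11 were higher and 0 lower. Their median log2 ratio was 0.15, and 0.14 after GC correction, against -0.01 over all genes. Msmo1, a sterol C4-demethylating oxidase (chr8:64718139-64733792), had 171 CPM in the scratched and 133 CPM in the unscratched library (1.28, 1.23 to 1.34). Hmgcs1, the cytosolic HMG-CoA synthase, had 185 and 151 CPM (1.22, 1.17 to 1.27), and the lanosterol demethylase Cyp51 303 and 249 CPM (1.22, 1.18 to 1.26). Squalene epoxidase (Sqle) had a ratio of 1.09 and fell short of the rule. The unscratched library was the lowest of the 6 for 18 of the 21.

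For the leading enzymes the knockouts lay further above the unscratched level than the scratched parental library did. Hmgcs1 stood between 319 and 428 CPM in the 4 knockouts and Msmo1 between 268 and 325 CPM. Among the control genes of the pathway, Insig1 (1.14) was higher, and the regulators Srebf2 (0.91), Srebf1 (0.88) and Scap (0.90) were lower. Srebf2 and Scap are rich in GC. Their log2 ratios of -0.14 and -0.15 were -0.03 and -0.04 after GC correction. Of 16 fatty acid synthesis genes, 0 were higher and 0 lower.

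The promoters of the 4 sterol genes with the largest ratios at the interval bound are printed for the CCAAT box, bound by NF-Y, a known partner of SREBP2, and for the sterol element core. Windows and source are as above, and capitals mark CCAAT or its reverse complement ATTGG and, in Hmgcs1 alone, TCACNCCAC; both motifs were searched on both strands and no marked runs overlap.
Msmo1 (chr8:64733529-64733828, minus strand): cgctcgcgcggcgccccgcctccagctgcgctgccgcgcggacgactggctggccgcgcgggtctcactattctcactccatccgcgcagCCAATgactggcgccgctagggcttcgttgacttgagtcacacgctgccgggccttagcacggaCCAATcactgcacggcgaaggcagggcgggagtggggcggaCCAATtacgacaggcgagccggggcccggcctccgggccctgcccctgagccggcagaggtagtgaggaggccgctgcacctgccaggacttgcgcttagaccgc
Cyp51 (chr5:4104648-4104947, minus strand): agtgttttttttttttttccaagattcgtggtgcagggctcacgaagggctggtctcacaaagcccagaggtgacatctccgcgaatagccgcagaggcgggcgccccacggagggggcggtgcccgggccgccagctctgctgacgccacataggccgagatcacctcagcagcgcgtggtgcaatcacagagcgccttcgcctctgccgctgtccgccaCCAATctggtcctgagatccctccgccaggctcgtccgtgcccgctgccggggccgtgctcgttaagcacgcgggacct
Hmgcs1 (chr13:119690101-119690400, plus strand): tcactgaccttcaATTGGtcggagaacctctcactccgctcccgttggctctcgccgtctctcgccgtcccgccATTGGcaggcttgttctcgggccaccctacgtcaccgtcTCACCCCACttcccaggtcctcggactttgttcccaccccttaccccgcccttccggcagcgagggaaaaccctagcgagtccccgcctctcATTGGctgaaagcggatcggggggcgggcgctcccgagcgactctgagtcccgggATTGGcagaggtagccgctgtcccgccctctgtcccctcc
Insig1 (chr5:28071162-28071461, plus strand): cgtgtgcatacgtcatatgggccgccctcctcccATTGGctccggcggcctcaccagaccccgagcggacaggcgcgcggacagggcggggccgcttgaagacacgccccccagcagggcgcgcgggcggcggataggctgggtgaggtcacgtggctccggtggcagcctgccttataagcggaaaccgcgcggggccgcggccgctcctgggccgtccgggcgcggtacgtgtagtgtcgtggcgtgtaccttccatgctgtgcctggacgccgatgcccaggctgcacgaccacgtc
The sterol element core in Hmgcs1 begins 137 bases before the start site. CCAAT was held by 15 of the 16 cholesterol synthesis windows (93.8%), against 41.1% of all genes with a window. TCACNCCAC was held by 1 of the 16 (6.25%), against 1.44% of all. It was also held by 1 of the 16 basement membrane windows, and by 0 of the 12 windows of sterol uptake and SREBP control genes.

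**Figure D4:**
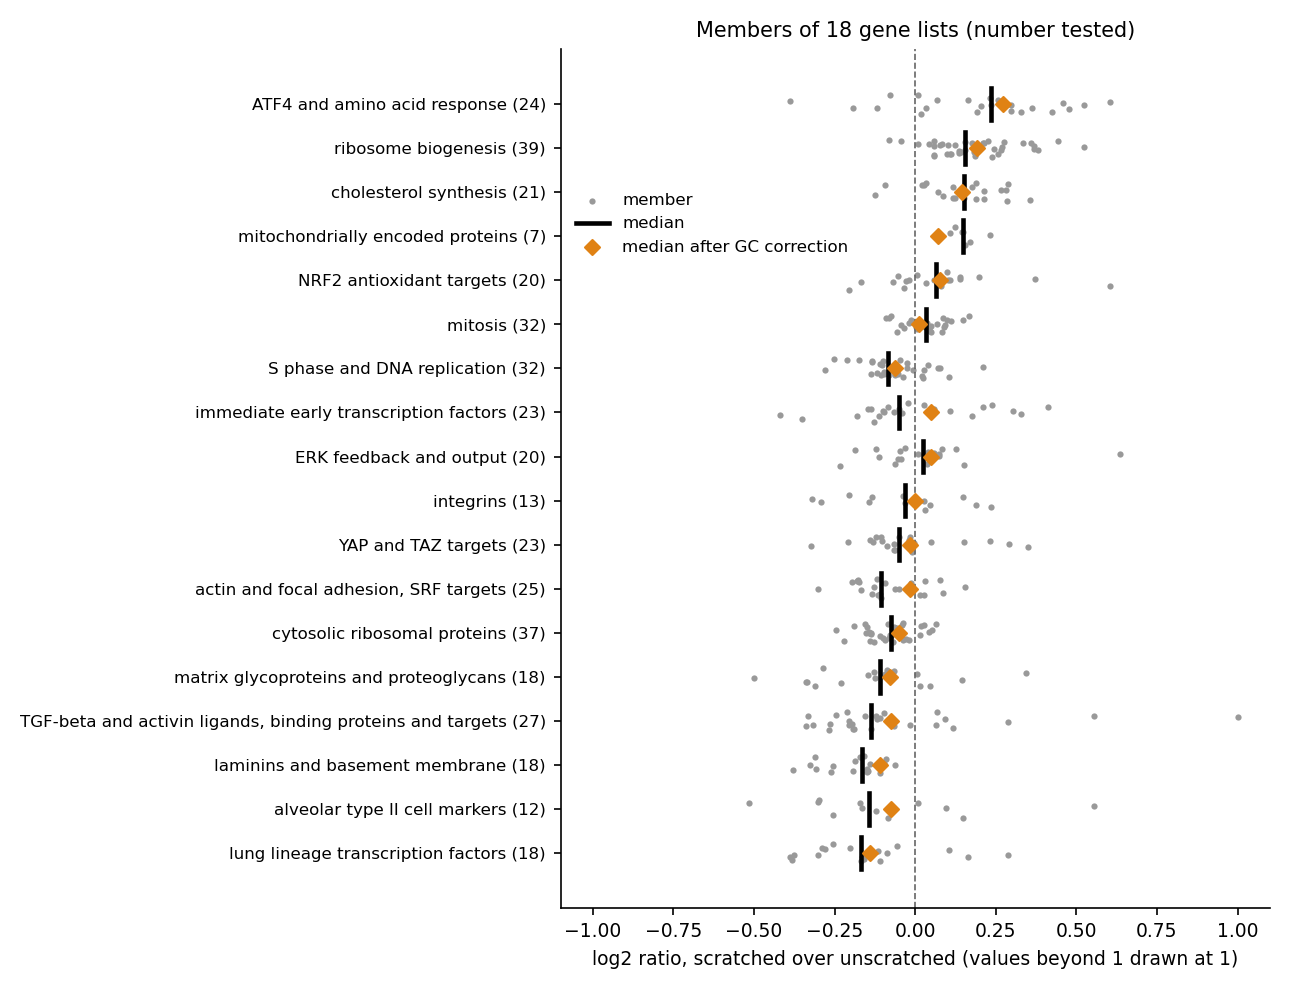
Log2 ratio of the scratched over the unscratched parental library for the compared members of 18 gene lists. Each grey dot is 1 gene, black bars are list medians and orange diamonds are medians after GC correction; the ATF4, ribosome biogenesis and cholesterol lists lie to the right of 0 and the basement membrane, TGF-beta and lung lineage lists to the left, with the diamonds on the same side as the bars in those 6.

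Genes of mitochondrial DNA and of NRF2 also leaned upward, those of NRF2 by less. All 7 mitochondrially encoded protein genes compared, of 13 listed, had a ratio above 1 and 5 were higher, led by mt-Nd5 with 1914 CPM in the scratched and 1629 CPM in the unscratched library (1.18, 1.16 to 1.19). These transcripts are poor in GC, and their median log2 ratio of 0.15 was 0.07 after GC correction. The nuclear-encoded subunits of the respiratory chain were even, with 2 higher and 2 lower of 38. Of 20 NRF2 targets, which defend against oxidants, 5 were higher and 2 lower, and the median log2 ratio was 0.06. Nqo1 had 107 and 82.5 CPM (1.30, 1.23 to 1.37) and Gclc, the limiting enzyme of glutathione synthesis, 181 and 158 CPM (1.15, 1.102 to 1.19), beside Txnrd1, Gclm and the shared member Slc7a11. Lower were the glutathione transferases Gstm1 (0.87) and Gsta4 (0.89). In the knockouts Nqo1 stood between 115 and 143 CPM, above both parental libraries, and Gclc between 131 and 157 CPM, below both.

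The early wound genes showed little at 24 hours. Of 23 immediate early transcription factors, Atf3 (1.255), Myc (1.18) and Fos (1.13) were higher and Jund (0.78), Ier5 (0.88), Zfp36 (0.90) and Klf4 (0.91) were lower; the list's median log2 ratio was -0.05 as measured and 0.05 after GC correction. Fos had 48.0 CPM in the scratched and 42.4 CPM in the unscratched library, against 188 to 218 CPM in the knockouts, and Egr1 had 201 and 197 CPM (1.02, 0.98 to 1.06), against 371 to 428 CPM. Of 20 ERK output genes, the phosphatase Dusp4 was higher (165 and 100 reads, 1.55, 1.21 to 2.01) and Spry1 lower (0.88). Ptgs2, the inducible cyclooxygenase, had 12.1 and 8.03 CPM (1.51, 1.27 to 1.78), and the cytokine Lif had a ratio of 1.18.

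Receptors, ligands and adhesion genes were mixed. The receptor Met, which binds hepatocyte growth factor, was higher (1.17), as was the fibronectin receptor chain Itga5, with 845 reads in the scratched and 676 in the unscratched library (1.18, 1.06 to 1.30). The ERBB receptors Erbb2 (0.84) and Erbb3 (0.87), the ligand Hbegf (0.82) and the integrin chains Itgb5 (0.82) and Itgb3 (0.87) were lower. Fibronectin (Fn1) had 204 and 201 CPM (1.01, 0.98 to 1.05) and the urokinase receptor Plaur 17.8 and 17.5 CPM (1.01, 0.89 to 1.14). Among 23 YAP and TAZ targets, Ankrd1 was higher (1.22), Amotl2 (0.87) and F3 (0.80) were lower, and Ccn1 (0.97) and Ccn2 (0.96) passed no rule. Of 25 actin and focal adhesion genes, 0 were higher and 6 lower, Actb (0.89), Myh9 (0.88) and Tpm2 (0.81) among them; their median log2 ratio of -0.10 was -0.01 after GC correction.

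Cell cycle genes lay within small ratios, and few passed the rule: 2 of 32 mitotic genes were higher, against 8.16% of all genes, and 4 of 32 S phase genes were lower, against 12.2%. Of 32 mitotic genes, 24 had a ratio above 1 and the unscratched library was the lowest of the 6 for 20, but only Bub1 (1.12) and Aurka (1.11) were higher. Their median log2 ratio was 0.03, or 0.01 after GC correction, when 19 lay above 0. Of 32 genes of S phase and replication, 8 had a ratio above 1 and the unscratched library was the highest of the 6 for 19; their median log2 ratio was -0.09, or -0.06 after GC correction. Cyclin E2 (Ccne2, 1.16) was higher, and the replication licensing genes Cdt1 (0.84), Mcm3 (0.89) and Mcm2 (0.91) and the polymerase subunit Pold1 (0.86) were lower. The proliferation marker Mki67 had 675 CPM in the scratched and 671 CPM in the unscratched library (1.01, 0.99 to 1.03). The p53 target and cell-cycle inhibitor Cdkn1a had 141 and 152 reads (0.87, 0.69 to 1.11). Other p53 targets and growth arrest genes were split, with Aen (1.40) and Mdm2 (1.14) higher and 6 lower, among them Pmaip1 (0.78) and the Cdkn2a locus (0.85).

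Basement membrane genes were lower as a group. Laminins, collagen IV, nidogens and perlecan form the sheet on which lung epithelium rests. Of 18 compared, 0 had a ratio above 1, against 46.4% of all genes, and 13 were lower. The median log2 ratio was -0.17, and -0.11 after GC correction, with all 18 below 0 on both scales; their median GC content of 54.1% was above the 49.7% of all genes. Nid2 (nidogen 2) had 4619 reads (152 CPM) in the scratched and 5654 reads (197 CPM) in the unscratched library, a ratio of 0.77 (0.74 to 0.80). The collagen IV chains Col4a1 (535 and 663 CPM, 0.81) and Col4a2 (289 and 362 CPM, 0.80), which share a promoter region, were lower, as were the laminin chains Lamb2 (710 and 880 CPM, 0.81), Lama5 (534 and 638 CPM, 0.84) and Lamc1 (651 and 744 CPM, 0.88). The laminin chain Lamb3 had 254 and 256 reads (0.93, 0.78 to 1.12). The unscratched library was the highest of the 6 for 4 of the 18, a share near that of all genes.

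Other matrix genes were lower more often than higher. Fibrillar and other collagens gave 2 higher and 4 lower of 12, with a median log2 ratio of -0.13, or -0.04 after GC correction. Their median GC content was 56.4%, and 26.1% of all genes were lower in the GC group that spans 55.5% to 57.8%. Collagen VI chains Col6a1 (0.80) and Col6a2 (0.78) were lower, as was Col1a1, with 44.8 CPM in the scratched and 62.3 CPM in the unscratched library (0.72, 0.67 to 0.77). Col12a1 was higher (38.6 and 32.1 CPM), and Col5a1 had 19 and 6 reads (2.98, 1.15 to 9.13). Col5a1 passed the filter on level only through the knockouts (0.73 to 3.97 CPM), against 0.62 CPM in the scratched and 0.21 CPM in the unscratched parental library. Of 13 genes that modify or cross-link collagen, 0 were higher and 6 lower, including the lysyl hydroxylases Plod1 (0.84) and Plod3 (0.85), Loxl3 (0.85) and Tgm2 (0.83). Tenascin C (Tnc), a matrix protein of wounds, had 58.0 and 70.8 CPM (0.82, 0.77 to 0.87). The membrane protease Mmp14 had 51.3 and 59.5 CPM (0.86, 0.80 to 0.93). Of 8 insulin-like growth factor binding proteins and receptors, a list also added after ratios were seen, 0 were higher and 3 lower: Igfbp5 (313 and 430 reads, 0.69), Igfbp6 (0.79) and Igf2r (0.90).

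TGF-beta ligands, latency proteins and responsive genes were lower more often than higher. Of 27 genes compared, 13 were lower and 2 higher, and the median log2 ratio was -0.14, or -0.08 after GC correction; the mean was 0.02, and -0.10 without Ltbp2, which lies under 1 CPM in both parental libraries. The ligands Tgfb1 (38.9 and 46.9 CPM, 0.83, 0.77 to 0.90) and Tgfb3 (0.87) were lower. So were the latent TGF-beta binding proteins Ltbp3 (660.0 and 822 CPM, 0.80, 0.79 to 0.82) and Ltbp4 (0.83), the receptor Tgfbr2 (0.90), and the responsive genes Smad7 (0.84), Pmepa1 (0.86), Smad6 (0.87) and Id1 (0.87). Bmp2 was higher (106 and 68 reads, 1.47, 1.07 to 2.02), as was Ltbp2.

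Axon guidance genes, which also steer epithelial cells, followed the same direction: of 48 compared, 20 were lower and 1, Sema3c (1.32), was higher, with a median log2 ratio of -0.10, or -0.05 after GC correction. Nrp1, a semaphorin and VEGF co-receptor, had 628 CPM in the scratched and 740 CPM in the unscratched library (0.85, 0.83 to 0.87), and Sema4d (0.81), Sema3f (0.83), Ephb6 (0.84) and netrin 1 (Ntn1, 0.83) were lower. Of the receptors whose knockouts the study made, Lingo1 had 744 reads (24.5 CPM) in the scratched and 791 reads (27.6 CPM) in the unscratched library, a ratio of 0.89 (0.80 to 0.98); the knockouts had 34.7 to 57.0 CPM, the most in the library labelled Lingo1. Lingo2 and Lingo3 had 0 reads in both libraries, which allows up to 3 reads in each. Tnfrsf19, which encodes TROY, had 1 read in the scratched and 0 in the unscratched library. The Nogo receptor family member Rtn4rl1 was lower (0.82).

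Lung identity genes leaned downward. Of 18 lung lineage transcription factors, 6 were lower and 1, Sox9 (1.12), was higher, with a median log2 ratio of -0.17, or -0.14 after GC correction. Nkx2-1, the defining factor of lung epithelium, had a ratio of 0.84 (0.81 to 0.87), Gata6 0.87, Foxa2 0.89 and Foxp4 0.82. Surfactant protein B (Sftpb) was lower, with 1083 and 1149 reads (0.89, 0.82 to 0.97), while Sftpc had 557 and 473 reads (1.11, 0.98 to 1.26). Of 12 alveolar type II markers compared, 0 were higher, 3 lower and 9 past neither rule. Their median log2 ratio was -0.14, or -0.07 after GC correction. Of 14 alveolar type I markers, 0 were higher, 3 lower and 11 past neither, with a median of -0.06, or -0.03 after GC correction. Ager, 1 of the lower type I markers, had 343 and 433 CPM (0.79, 0.77 to 0.81). Keratins and basal cell genes did not share the direction. Of 9 compared, 3 were higher and 2 lower, with a median log2 ratio of 0.06, or 0.09 after GC correction. Aqp3 (1.52), Krt80 (1.11) and Sox9 were the higher members. The basal keratin Krt14 was lower (0.88), and Trp63, the basal cell factor, had 26 and 32 reads (0.77, 0.44 to 1.33). Junction genes were mixed, with Cldn12 (1.12) higher and 6 of 23 lower, among them plakoglobin (Jup, 0.82).

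Among stress and immune lists, the interferon response gave 0 higher and 1 lower of 26 (Psmb8, 0.82), and NF-kB targets gave 3 in each direction of 21. Heat shock genes gave 3 higher and 2 lower of 18, with a median log2 ratio of 0.02. The mitochondrial chaperones Hspe1 (1.22) and Hspd1 (1.11) were higher, as was Hspa4 (1.101), whereas Hspb1 (0.80) and Bag3 (0.87) were lower. Acute phase and complement genes gave 0 higher and 4 lower of 12, with 5 at a ratio above 1. Their median log2 ratio was -0.02, as measured and after GC correction. The lower ones were Lbp (0.81), Clu (0.86), C1ra (0.81) and C1s1 (0.64). In glucose metabolism hexokinase 2 (Hk2) was higher, with 333 and 233 reads (1.35, 1.14 to 1.60), and hexokinase 1 (Hk1) lower (0.85). Nuclear long RNAs and paraspeckle proteins gave 3 higher and 0 lower of 11, with a median log2 ratio of 0.05, or 1.2e-05 after GC correction. The higher ones were the nuclear RNAs Malat1 (254 and 210.1 CPM, 1.21), Neat1 (1.12) and Kcnq1ot1 (1.31). In the knockouts Malat1 stood between 68.9 and 118 CPM and Neat1 between 99.5 and 158 CPM, below both parental libraries.

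Of the 71 possible foreign RNA genes, 48 were pseudogenes and 23 protein coding; of the 102 found by raw counts, 71 were pseudogenes and 29 protein coding. Of 15 listed markers of endothelial cells, which line vessels, 3 were among the 71 genes (Vwf, Tie1 and Cdh5) and 4 among the 102. Tie1 had 52 reads in the scratched and 0 in the unscratched library, a ratio of 16.3 with the 0 set to 3 counts, and a counting interval that begins at 12.8. The laminin chain Lama4 had 62 and 0 reads (19.5 by the same floor, interval beginning at 15.4), VE-cadherin (Cdh5) 20 and 0, Robo4 23 and 0, Adgrl4 25 and 0, and Efemp1 67 and 2 reads (31.6, 8.40 to 266). In the knockouts Tie1 had 0 reads in every library, Cdh5 at most 1 and Lama4 at most 2.

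Not all endothelial markers shared this. Of the 15, 14 had any read in the scratched library and 8 in the unscratched library. Kdr had 74 and 12 reads and Cldn5 11 and 0, but Pecam1 had 8 and 9, Plvap 45 and 45, Eng 31 and 30, and Emcn 0 in both. Flt1 was higher, with 239 and 166 reads (1.36, 1.11 to 1.66), and stood between 14.8 and 35.9 CPM in the knockouts, against 7.86 CPM in the scratched and 5.79 CPM in the unscratched parental library. The list's summed level was 109.8 CPM in the scratched and 112 CPM in the unscratched library, most of it Tek (2630 and 2909 reads, 0.85). Muscle actin Acta1 (39 and 6 reads) and periostin (Postn, 16 and 0) were also among the 71 genes, and the endothelin receptor Ednrb (11 and 0) only among the 102. The source of these reads was not tested. Without the 71 genes and with scaling repeated, 6 genes passed the 2-fold rule upward and 2 downward, and 1001 were higher and 1447 lower by the small-shift rule.

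**Figure D5:**
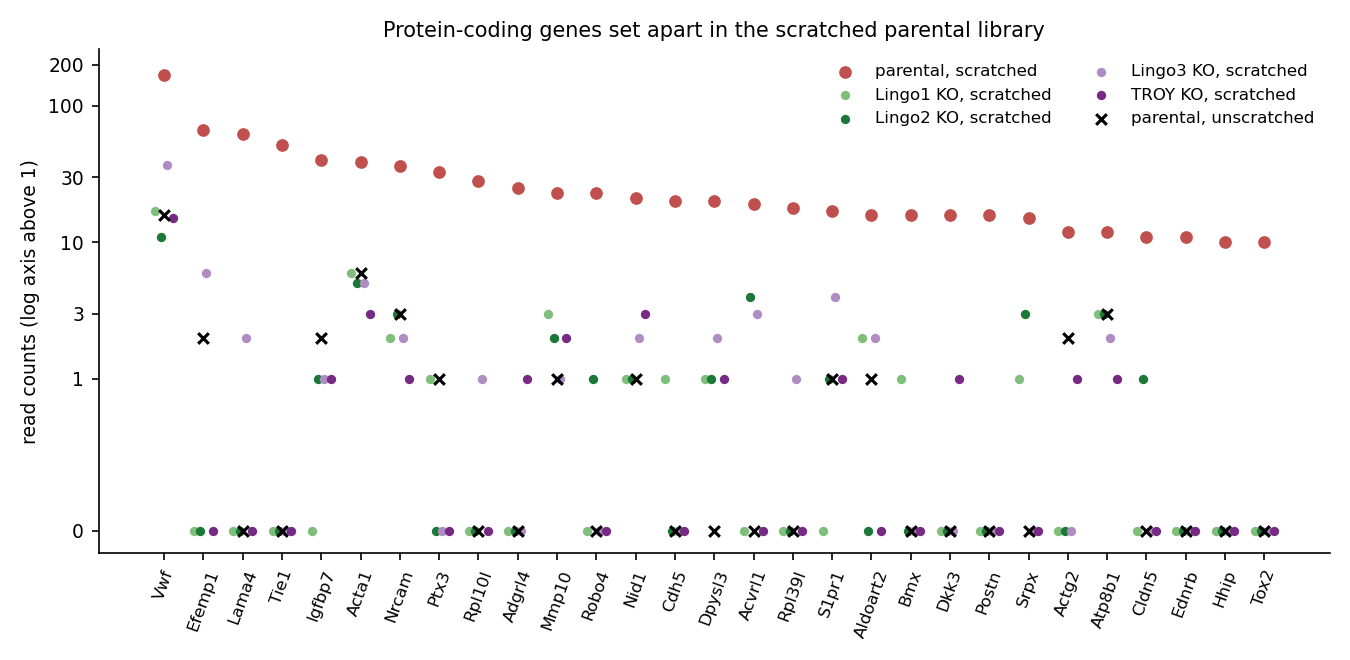
Read counts in all 6 libraries for the 29 protein-coding genes set apart in the scratched parental library by raw counts, ordered by that library's count. Large red dots are the scratched parental library, small dots the 4 scratched knockout libraries and black crosses the unscratched parental library; the vertical axis is logarithmic above 1. Red dots lie between 10 and 169 reads, and most other points between 0 and 3.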

How the data were processed

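Raw read counts, by Ensembl gene identifier, were deposited by the authors for 6 libraries, 1 per group, made with the Illumina TruSeq mRNA kit per the labels. Trimmomatic 0.39, STAR, HTSeq, edgeR and build GRCm38 are named in the submitters' processing notes, without settings; strandedness is not given in these sources. RPKM values and log2 ratios were also deposited by the authors; their log2 ratios differed from those computed here by a median of 0.0124 (SD 0.0029) over 11819 genes. HTSeq's summary lines were left out.

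Counts were scaled with TMM over the 6 libraries (edgeR 4.0.16, R 4.3.3). Symbols, positions and GC content came from GENCODE M21, which matched 45229 identifiers. Ratios and exact intervals were computed in Python 3.11.15 with scipy 1.17.1. The procedure was tested on simulated data. With 1 library per group, no p-value was computed; reads carry no molecular identifiers, so intervals cover counting error only. A count of 0 was set to a floor of 3 for a ratio.

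Genes were named by rule: all past the 2-fold rule, the 12 protein-coding genes in each direction with the largest ratio at the nearer interval bound, up to 4 members of each of 52 gene lists in each direction, the possible foreign RNA genes that are protein coding or most counted, and a list of wound, lung and LINGO genes; further list members are named to complete a list. Aldh1l2 and others of the top 12 lie outside the lists. The comparison, its genes and the lists were chosen with earlier results of these data known, and 3 further lists were added after ratios were seen. Promoters came from RefSeq (GRCm38.p6). Alternatives changed the scaling (DESeq2 1.42.0 size factors among them), filter, interval, thresholds, source of the ratio and GC correction. A few named genes are counted in their lists but not reported here.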

Additional observations from a re-analysis of the deposited data

Results flagged for a closer look

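Reads of 69 genes too low for the comparison summed to 1737 in the scratched parental library, against 51 to 66 in the 4 scratched knockout libraries and 78 in the unscratched parental library. They were singled out because each had at least 10 reads in the scratched parental library and at least 4 times the level of every other library, while the filter on level kept them out of all ratios and list counts. They are the possible foreign RNA genes other than Vwf and Gm12912. Their source was not tested.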

How the results depend on the processing

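No paired analysis was possible because each group has 1 library, and no library could be left out. Past the 2-fold rule there were 10 genes. With the filter on the parental libraries alone there were 14, without a filter on level 160, with a mean of at least 5 CPM 2, with 99% intervals 6, with a fold of 1.5 and a lower bound there were 39, and with a fold of 3 and a bound of 2 there were 4. Small-shift counts were 985 higher and 1476 lower. Total counts gave 1495 higher, GC correction 877 lower, and a fold of 1.2 gave 294 higher and 431 lower. The 71 possible foreign RNA genes became 124 at 3 times, 11 at 10 times and 45 at a minimum of 20 counts. The basement membrane median of -0.17 was -0.13 with total counts and -0.11 with GC correction, and the mitochondrially encoded median of 0.15 was 0.0718 with GC correction. The mean of the TGF-beta list was 0.0236 where its median was -0.14; Ltbp2 alone has a ratio of 9.42. With GC correction Itgb4 came to 0.0050. Of 215 named genes past the small-shift rule, 74 lost the call under at least 1 of 12 alternatives and 1 reversed. Over all alternatives run, the median stayed between 0.22 and 0.27 for the ATF4 list, 0.14 and 0.18 for cholesterol synthesis, and 0.16 and 0.19 for ribosome biogenesis. The causes of these moves were not tested. Depth limits genes near 1 CPM: with 26 reads in the scratched and 32 in the unscratched library, Trp63 had an interval of 0.44 to 1.33.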
